A study of Mus musculus with 12 samples.

Results

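The genes described here are 10 genes of the inflammasome and gasdermin pathway that the count table lists by symbol: the sensors Nlrp3, Nlrp6 and Nlrc4, the adaptor Pycard, the caspases Casp1 and Casp4, and the gasdermins Gsdmd, Gsdmc2, Gsdmc3 and Gsdmc4. They were chosen by name, with earlier results of these data known. All 10 were found among the 18514 genes of the table, and all 10 were among the 15484 genes that passed the filter on low counts. RNA was sequenced from colorectal tissue of male C57BL/6 mice bought at 4 weeks of age, with 3 libraries in each of 4 groups. Ctrl mice received neither carcinogen nor colitis-inducing agent and did not train, and Ctrl_Swim mice swam for up to 90 min per day. Model mice received azoxymethane (AOM), a carcinogen, as 1 injection of 10 mg/kg, followed by 3 cycles of 7 days with 2% dextran sulfate sodium (DSS), which injures the colonic epithelium, in the drinking water. Model_Swim mice received the same AOM and DSS and swam like the Ctrl_Swim mice, with training from 2 months before AOM. The tissue was whole colorectal tissue that can hold tumour as well as tissue around it, and mice that did not train were placed in shallow water. Where the text speaks of mice it means these libraries, and the p-values measure the spread between them. In such bulk tissue, fewer cells of a type and less RNA per cell cannot be told apart.

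An inflammasome is a protein complex that forms in the cytosol when a sensor such as NLRP3, NLRP6 or NLRC4 meets microbial products or signs of damage. Through the adaptor ASC, which Pycard encodes, most sensors recruit caspase-1, which cleaves the precursors of IL-1β and IL-18 and also gasdermin D, whose free N-terminal part makes pores in the plasma membrane. Caspase-11, encoded by mouse Casp4, binds bacterial lipopolysaccharide and cleaves gasdermin D without a sensor complex. In the intestine, Nlrp6, Pycard, Casp1 and the gasdermin C genes are known from the epithelium, whereas Nlrp3 is best known from myeloid cells, and the gasdermin C genes are known to be induced by the type 2 cytokines IL-4 and IL-13.

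Gsdmc2, Gsdmc3 and Gsdmc4 lie next to each other on chromosome 15 of GRCm38.p6, all on the minus strand. Gsdmc2 spans positions 63824328 to 63845193, Gsdmc3 63857605 to 63878579 and Gsdmc4 63891140 to 63912319, and with their neighbour Gsdmc the cluster covers 136.3 kb. Their coding sequences, read from the GENCODE transcripts of this genome, are near copies of each other. Gsdmc2 and Gsdmc3 were identical at 97.1% of 1440 aligned bases, Gsdmc2 and Gsdmc4 at 93.5%, and Gsdmc3 and Gsdmc4 at 93.4%. The stretch of 90 coding bases in which the 3 genes differ most is printed below because reads from such stretches tell the copies apart. Capitals mark the 22 positions at which the 3 sequences are not all the same, from base 778 of the coding sequence in Gsdmc2 and Gsdmc3 and from base 784 in Gsdmc4.
Gsdmc2: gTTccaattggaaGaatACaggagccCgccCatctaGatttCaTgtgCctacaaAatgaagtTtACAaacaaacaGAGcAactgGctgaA
Gsdmc3: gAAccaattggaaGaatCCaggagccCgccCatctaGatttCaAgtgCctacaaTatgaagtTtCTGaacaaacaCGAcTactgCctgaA
Gsdmc4: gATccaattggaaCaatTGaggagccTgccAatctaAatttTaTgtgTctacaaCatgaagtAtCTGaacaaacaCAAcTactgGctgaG

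At the other end, the longest run shared letter for letter by all 3 genes was 146 bases, bases 256 to 401 of the coding sequence of Gsdmc2. A read that lies wholly within it cannot by itself be given to 1 of them.
Shared run: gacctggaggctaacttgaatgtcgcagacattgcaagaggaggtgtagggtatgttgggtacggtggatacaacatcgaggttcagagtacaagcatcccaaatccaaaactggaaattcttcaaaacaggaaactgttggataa
Of all windows of 150 bases in the longest coding transcript, 16.6% in Gsdmc2, 19.3% in Gsdmc3 and 8.83% in Gsdmc4 also occurred in a transcript of another gene. How the authors counted reads that match several genes is not given in the sources used here, so the split of the counts between the 3 copies is uncertain and their sum is given as well. Of the other members, only Pycard shared windows of that length (9.20%), with the overlapping gene model Gm45205. The GENCODE transcript of Pycard used for this, of 3800 bases, is longer than the RefSeq span of the gene given below.

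The other members are spread over the genome. In GRCm38.p6, Pycard (127991373 to 127993867, minus strand) and Nlrp6 (140920902 to 140929192, plus strand) lie on chromosome 7 and Nlrp3 (59541569 to 59566955, plus strand) on chromosome 11. Casp1 (5298517 to 5307281) and Casp4 (5308849 to 5336791) lie 1.57 kb apart on the plus strand of chromosome 9. Gsdmd (75862144 to 75867408, plus strand) is on chromosome 15 and Nlrc4 (74426255 to 74459144, minus strand) on chromosome 17.

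Total counts lay between 17256953 and 19451055 per library, so that 3 counts, up to which a gene with no count could lie by counting error alone, are at most 0.174 CPM (counts scaled to a library's total). CPM values below also use TMM scaling factors. Within groups, libraries correlated over all tested genes between r = 0.923 and 0.988 on the log2 CPM scale. The 15 colonocyte and 11 goblet cell markers were detected in all groups, as the labelled tissue would have. A pair of libraries stood apart: the summed level of 21 genes of pancreatic acinar cells was 54634 CPM in Model 1 and 26608 CPM in Model 3, against 200.5 to 707 CPM in the other 10. Results of the members on the Model group are therefore also given without these 2 libraries, an alternative chosen after seeing the data, in which the remaining Model library is assumed to vary like the other groups. Libraries of a group also differed in the summed level of 12 genes of squamous epithelium. This sum was 9.64 to 1521 CPM in Model, 120 to 1048 CPM in Model_Swim and 6.76 to 459 CPM in Ctrl_Swim mice. In Ctrl mice it was 6.49 to 9.83 CPM.

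**Figure D1:**
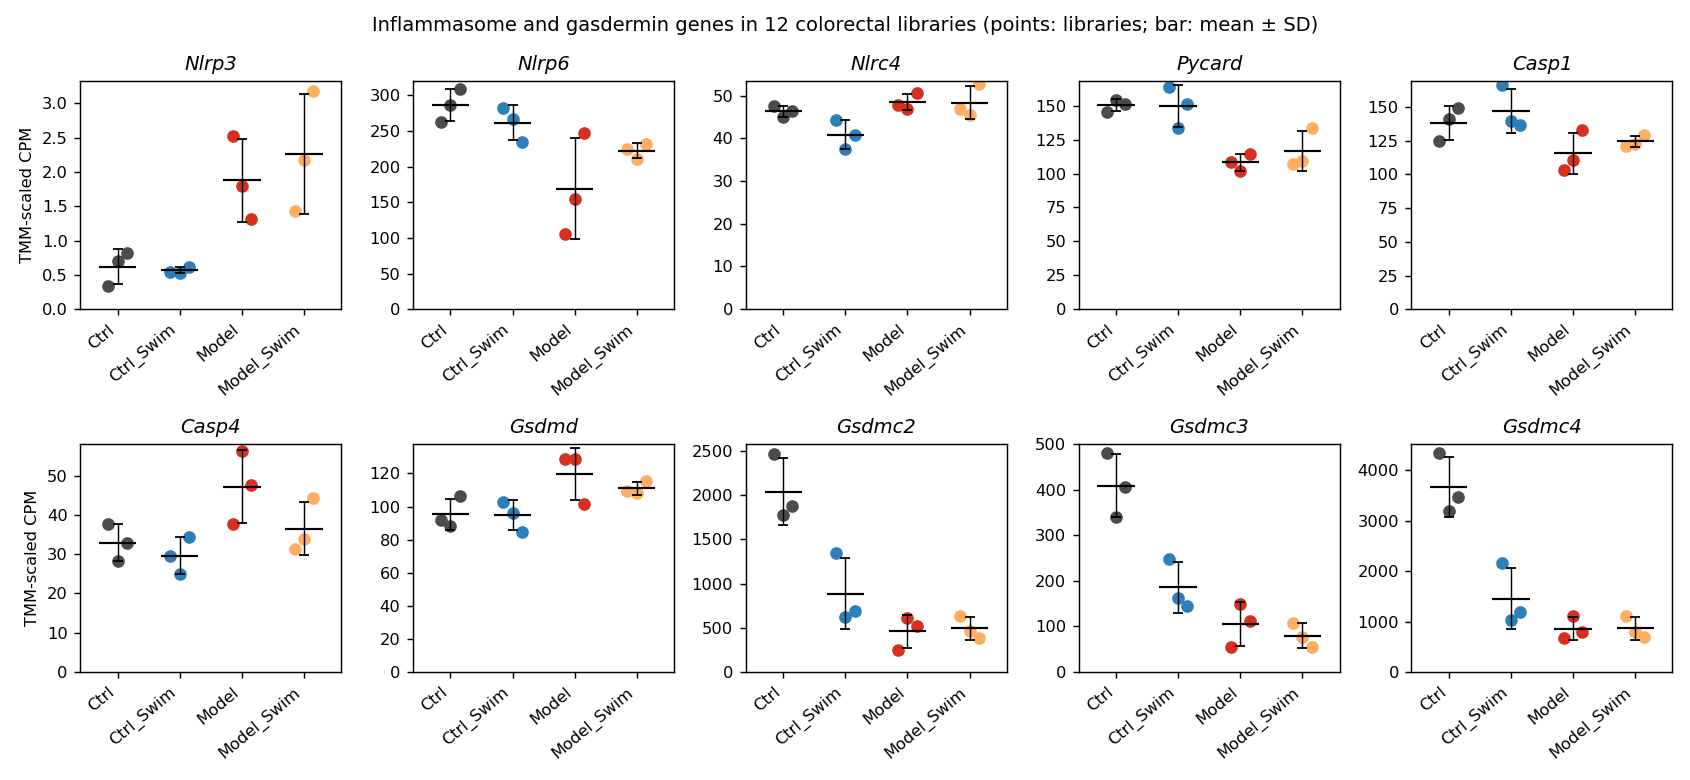
Level of each of the 10 genes in TMM-scaled CPM (y axis, from 0) in the 12 libraries by group (x axis); points are libraries and bars the mean with its SD of 3. The 3 gasdermin C genes are highest in every Ctrl library, Nlrp3 is higher in every Model and Model_Swim library than in the others, and the group means of Nlrc4 lie between 40.9 and 48.5 CPM.

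The members differed in level by more than 3 orders of magnitude, read in FPKM (fragments scaled to transcript length and library size, on which genes can be compared). In Ctrl mice, Gsdmc4 stood at 902 ± 137 FPKM (SD, n = 3) and Gsdmc2 at 540 ± 93.6 FPKM. They were followed by Gsdmc3 at 107 (highest library 124), Casp1 at 86.1 ± 8.26, Pycard at 66.4 ± 2.76, Nlrp6 at 59.1 ± 5.04, Gsdmd at 45.0 ± 4.36, Casp4 at 21.1 ± 2.84 and Nlrc4 at 8.95 ± 0.135 FPKM. Nlrp3 came last at 0.142 ± 0.0597 FPKM. In every library Gsdmc4 was higher than Gsdmc2, and the ratio of their FPKM was 1.40 to 1.72 in all libraries but Model 1, where it was 2.49. Over all 12 libraries, the means of Gsdmd (52.8 ± 7.92 FPKM), Gsdmc3 (52.8 ± 36.3 FPKM) and Nlrp6 (51.2 ± 11.6 FPKM) differed by less than their spread. Casp1 (86.7 ± 10.5 FPKM) stood above Pycard (61.3 ± 9.65 FPKM), and Casp4 (25.0 ± 6.54 FPKM) above Nlrc4 (9.44 ± 0.820 FPKM). The 3 gasdermin C genes together took 0.576 ± 0.0915% of all counts in Ctrl mice.

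**Figure D2:**
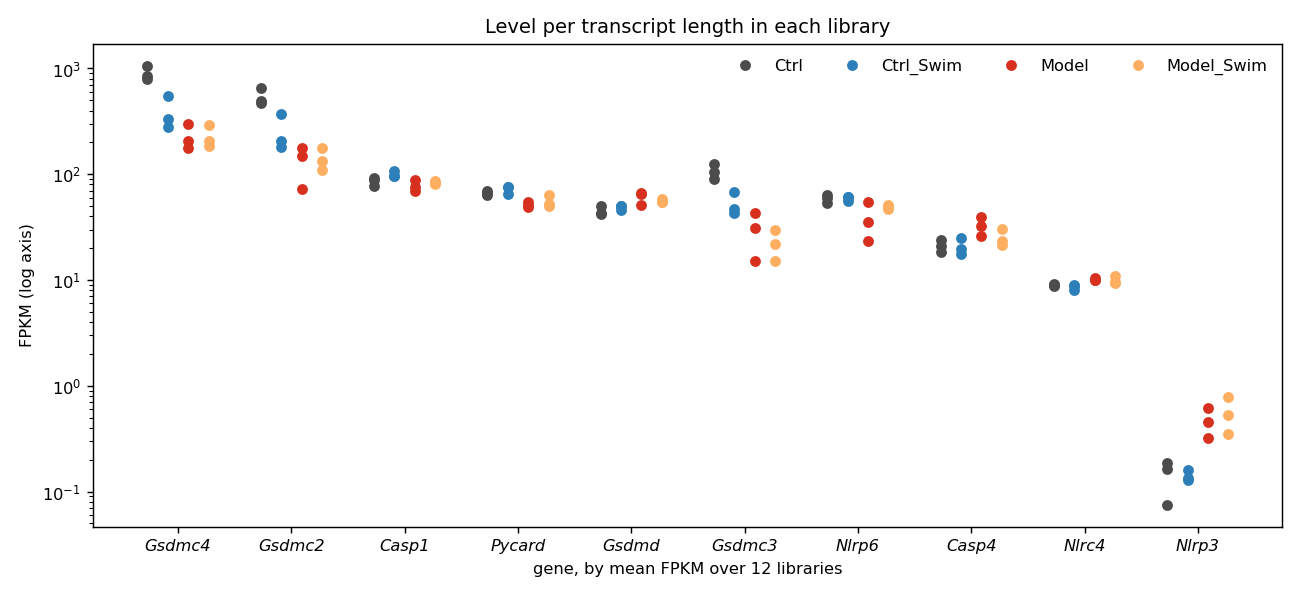
FPKM of each member (log axis) in the 12 libraries, genes ordered by their mean over all libraries, colours for the 4 groups. Gsdmc4 and Gsdmc2 lie above the rest in most libraries, from 71.9 FPKM upwards, and Nlrp3 lies below 1 FPKM in all libraries.

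Comparison of Model with Ctrl mice asked how AOM and DSS changed these genes in mice that did not train. The genes moved in opposite directions. The gasdermin C genes fell to about 23 to 26% of their control level and the epithelial sensor Nlrp6 and the adaptor Pycard fell less, whereas Nlrp3, Casp4 and Gsdmd rose. Of the 10 members, 3 rose and 5 fell at an adjusted p under 0.05 (edgeR quasi-likelihood test, Benjamini-Hochberg adjustment over all 15484 genes), while Casp1 and Nlrc4 did not pass. Over all tested genes 32.7% passed, 16.5% as higher and 16.2% as lower. The study's cutoffs, which add a fold change over 2 or under 0.5, were passed by 4 members, Nlrp3 as higher and Gsdmc2, Gsdmc3 and Gsdmc4 as lower, against 7.43% of all genes, with 1.22% of all genes lower. In 6 of the 10 members the libraries of both groups did not overlap, against 44.2% of all genes. The median log2 fold change of the 10 members was -0.37, beside 0.01 over all genes. In these and later counts of members the 3 gasdermin C genes count as 3. They are near copies with an uncertain split of counts, so they are not independent of each other.

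Gsdmc2 was at 2471, 1773 and 1879 CPM in Ctrl 1 to 3 and at 252, 608 and 521 CPM in Model 1 to 3. Gsdmc4 was at 4344, 3194 and 3479 CPM in Ctrl and at 675, 1113 and 787 CPM in Model mice. Gsdmc3, the lowest of the 3, was at 480, 341 and 407 CPM in Ctrl and at 54.4, 149 and 112 CPM in Model mice. In each of these pore-forming genes every Model library was below every Ctrl library, and Model 1 was the lowest. The log2 fold change was -2.15 (SE 0.37, adjusted p = 0.00214) for Gsdmc2, -1.96 (SE 0.36, adjusted p = 0.00291) for Gsdmc3 and -2.10 (SE 0.30, adjusted p = 0.000972) for Gsdmc4, which are decreases of 4.43-fold, 3.90-fold and 4.28-fold. Their summed share of the library's counts fell from 0.576 ± 0.0915% in Ctrl to 0.146 ± 0.0471% in Model mice (SD, n = 3 each), a value that does not depend on how reads were split among the copies. The 3 calls held in all 12 fits that left out 1 library, with the highest adjusted p at 0.0118 (Gsdmc3). Without Model 1 and Model 3 the log2 fold changes were -1.77, -1.48 and -1.74 for Gsdmc2, Gsdmc3 and Gsdmc4, with adjusted p of 0.0144, 0.0165 and 0.0119.

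Gsdmd, the pore-forming substrate of caspase-1 and caspase-11, moved the other way. In Ctrl 1 to 3 it was at 91.7, 88.0 and 106 CPM, in Model 1 to 3 at 129, 129 and 101 CPM, so Model 3 lay within the control range. The log2 fold change was 0.33 (SE 0.11, adjusted p = 0.0389). The call was lost without Ctrl 1 (adjusted p = 0.0967), Ctrl 2 (0.117), Model 1 (0.0896) or Model 2 (0.105), and without both Model 1 and Model 3 the log2 fold change was 0.42 (adjusted p = 0.0207).

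Among the sensors, Nlrp3 was read from few counts: 6, 13 and 15 in Ctrl and 47, 33 and 23 in Model mice. These are 0.331, 0.709 and 0.825 CPM against 2.52, 1.80 and 1.32 CPM, with all Model libraries above all Ctrl libraries. It rose by a log2 fold change of 1.59 (SE 0.42, adjusted p = 0.0163). The call was lost without Ctrl 1, the library with the lowest count (log2 fold change 1.31, adjusted p = 0.0569), and without Model 1 and Model 3 (adjusted p = 0.0655). Nlrp6, a sensor of enterocytes and goblet cells, was at 263, 287 and 310 CPM in Ctrl and at 106, 155 and 247 CPM in Model mice. The groups did not overlap, but Model 3 lay close to the controls. Nlrp6 fell by 0.76 on the log2 scale (SE 0.23, adjusted p = 0.0262), and the call was lost without Ctrl 2 (adjusted p = 0.0661), Ctrl 3 (0.0799) or Model 2 (0.0782). Its size depended on the libraries: the log2 fold change was -0.50 (adjusted p = 0.0369) without Model 1, -1.13 (adjusted p = 0.000316) without Model 3 and -0.91 (adjusted p = 0.000785) without both. Nlrc4, which answers to flagellin through the NAIP proteins, was at 46.3 ± 1.25 CPM in Ctrl and at 48.5 ± 1.93 CPM in the Model group (log2 fold change 0.07, SE 0.08, adjusted p = 0.531), and its log2 fold change without Model 1 and Model 3 was 0.00 (adjusted p = 0.997).

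Pycard, the adaptor, was at 146, 154 and 151 CPM in Ctrl and at 109, 102 and 114 CPM in Model mice. Its log2 fold change was -0.48 (SE 0.10, adjusted p = 0.00493), the groups did not overlap, and the call held in all 12 fits without 1 library and without both Model 1 and Model 3 (-0.58, adjusted p = 0.0125). Casp1 was at 125, 141 and 149 CPM in Ctrl and at 104, 111 and 133 CPM in Model mice. The Casp1 groups overlapped and the log2 fold change of -0.26 (SE 0.11, adjusted p = 0.0864) did not pass, but it did without Model 3 (-0.36, adjusted p = 0.0167), though not without both Model 1 and Model 3 (-0.34, adjusted p = 0.0545). Casp4 was at 37.8, 28.2 and 32.9 CPM in Ctrl and at 37.7, 56.4 and 47.6 CPM in Model mice, with Model 1 just inside the control range. It rose by 0.52 on the log2 scale (SE 0.18, adjusted p = 0.0464), and this call held in only 6 of the 12 fits without 1 library. It was lost without Ctrl 2, Ctrl 3, Ctrl_Swim 2, Model 2, Model 3 or Model_Swim 2, with adjusted p between 0.0541 and 0.153. Without both Model 1 and Model 3 it was at 0.75 (adjusted p = 0.0243).

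**Figure D3:**
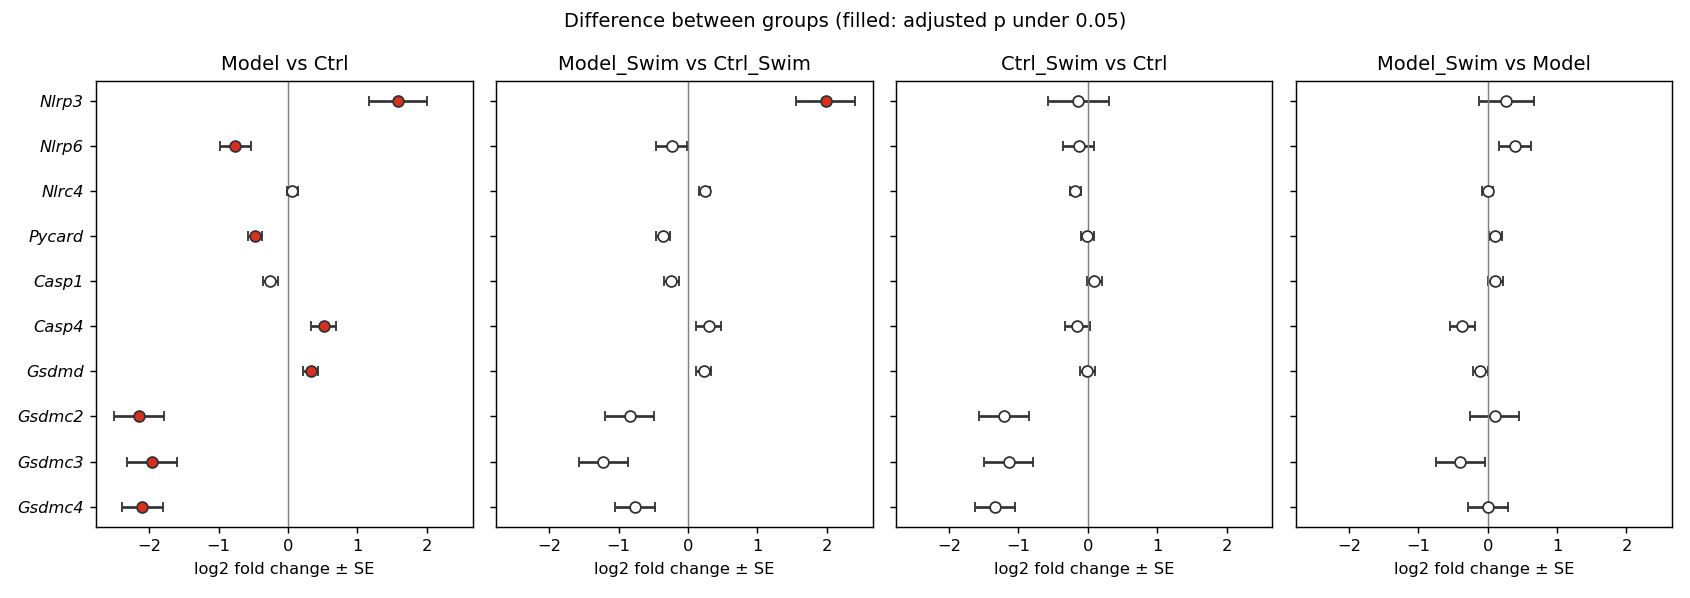
Log2 fold change of each member with its SE (x axis) in the 4 comparisons of groups, filled where the adjusted p was under 0.05. The Model vs Ctrl panel holds 8 filled points, with the gasdermin C genes near -2 and Nlrp3 at 1.59; the Model_Swim vs Ctrl_Swim panel holds 1, Nlrp3, and both swimming panels hold none.

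Comparison of Model_Swim with Ctrl_Swim asked for the same change in trained mice. It uses other libraries than the comparison above. Nlrp3 rose here too. The log2 fold changes of the other 9 members had the sign they had in untrained mice, but did not pass. Only Nlrp3 of the 10 members passed, against 5.18% of all genes. Its counts were 10, 10 and 12 in Ctrl_Swim and 26, 40 and 60 in Model_Swim mice, without overlap, and the log2 fold change was 1.99 (SE 0.43, adjusted p = 0.0273). This call was lost without any of the 3 Ctrl_Swim libraries (adjusted p 0.0866, 0.0904 and 0.0645) and without Model_Swim 2 (0.0757) or Model_Swim 3 (0.101).

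The gasdermin C genes and Pycard had log2 fold changes below 0 that did not pass. Gsdmc3 was at 249, 163 and 145 CPM in Ctrl_Swim 2 to 4 and at 108, 77.7 and 54.1 CPM in Model_Swim 1 to 3, without overlap, and its log2 fold change was -1.22 (SE 0.35, adjusted p = 0.0714). Gsdmc2 (log2 fold change -0.84, SE 0.35, adjusted p = 0.192) and Gsdmc4 (-0.76, SE 0.29, adjusted p = 0.152) overlapped between the groups. Without Ctrl_Swim 2 these were -0.42 (adjusted p = 0.526) for Gsdmc2 and -0.37 (adjusted p = 0.442) for Gsdmc4. Pycard was at 164, 134 and 151 CPM in Ctrl_Swim and at 107, 109 and 134 CPM in Model_Swim mice, with a log2 fold change of -0.36 (SE 0.10, adjusted p = 0.0581). DESeq2, the study's tool, called Nlrp3, Gsdmc3 (adjusted p = 0.0227) and Pycard (adjusted p = 0.0103). Casp1 (log2 fold change -0.24), Gsdmd (0.23), Nlrc4 (0.24) and Nlrp6 (-0.23) did not pass, with adjusted p of 0.212, 0.237, 0.0908 and 0.591, and Casp4 was at 0.30 (adjusted p = 0.356). In 7 of the 10 members the libraries of both groups did not overlap, against 32.4% of all genes.

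Comparison of Ctrl_Swim with Ctrl mice asked what swimming changed without AOM and DSS. It shares its Ctrl mice with the Model vs Ctrl comparison. No member passed (0 of 10), against 0.969% of all genes; at an unadjusted p under 0.05, 4 members and 2730 of all genes lay below the threshold, and DESeq2 called 1 member and 658 genes. The 3 gasdermin C genes nevertheless lay at 40 to 45% of their Ctrl mean in Ctrl_Swim mice. Gsdmc4 was at 2155, 1023 and 1188 CPM in Ctrl_Swim 2 to 4, each below the lowest Ctrl library at 3194 CPM. Its log2 fold change was -1.34 (SE 0.29, unadjusted p = 0.000766, adjusted p = 0.0593), and DESeq2 gave it an adjusted p of 0.00511. Gsdmc2 was at 1344, 619 and 686 CPM (log2 fold change -1.21, SE 0.36, adjusted p = 0.136) and Gsdmc3 at 249, 163 and 145 CPM (-1.14, SE 0.35, adjusted p = 0.149). Ctrl_Swim 2 was the highest of the group in all 3 genes.

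The groups did not overlap in 4 of the 10 members in this comparison, the gasdermin C genes and Nlrc4, against 27.4% of all genes. Nlrc4 was at 44.2, 37.6 and 40.8 CPM in Ctrl_Swim mice, and its log2 fold change was -0.18 (SE 0.08, adjusted p = 0.256). Without Model 1 and Model 3, libraries that are not part of this comparison but set the shared spread, Gsdmc2, Gsdmc3 and Gsdmc4 passed with adjusted p of 0.0475, 0.0378 and 0.0279, at log2 fold changes that moved by less than 0.01. Gsdmc4 also passed without Ctrl_Swim 2 (log2 fold change -1.71, adjusted p = 0.0483) or Model 1 (adjusted p = 0.0475). The other 6 members had log2 fold changes between -0.15 (Casp4) and 0.09 (Casp1). Those of Pycard and Gsdmd, both -0.01, were above 0 in the FPKM fits.

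Comparison of Model_Swim with Model mice asked whether swimming altered these genes under AOM and DSS. No member passed in this comparison (0 of 10, with 0 at an unadjusted p under 0.05 and 0 by DESeq2), against 0.0710% of all genes; over all genes, 2102 had an unadjusted p under 0.05 and DESeq2 called 361. The gasdermin C genes of Model_Swim mice lay in the range of Model mice or overlapped with it. Gsdmc4 was at 1111, 783 and 691 CPM in Model_Swim mice (log2 fold change 0.01, SE 0.29, adjusted p = 0.996), and Gsdmc2 was at 633, 464 and 383 CPM (0.10, SE 0.35, adjusted p = 0.932). Gsdmc3 was at 108, 77.7 and 54.1 CPM (-0.39, SE 0.35, adjusted p = 0.663), and the ratio of Gsdmc2 to Gsdmc3 in FPKM was 5.96 to 7.19 in Model_Swim libraries against 3.86 to 5.48 in all others. The summed share of the 3 genes was 0.145 ± 0.0367% of counts in Model_Swim mice, beside 0.146 ± 0.0471% in Model mice. Without Model 1 and Model 3, which leaves Model 2 alone in its group, the log2 fold changes were -0.29 for Gsdmc2, -0.88 for Gsdmc3 and -0.35 for Gsdmc4.

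Nlrp6 was at 224, 211 and 232 CPM in Model_Swim mice, above Model 1 and Model 2 (106 and 155 CPM) and below Model 3 (247 CPM). The log2 fold change of 0.39 (SE 0.23, adjusted p = 0.480) did not pass. Its value depended on the Model libraries: the log2 fold change was 0.14 (adjusted p = 0.712) without Model 1, 0.78 (adjusted p = 0.00941) without Model 3 and 0.54 (adjusted p = 0.0328) without both. Nlrp3 stood at 1.43, 2.18 and 3.18 CPM in Model_Swim mice, Casp4 at 31.4, 34.0 and 44.3 CPM and Gsdmd at 109, 108 and 116 CPM, all overlapping with Model mice. Their log2 fold changes were 0.27, -0.37 and -0.11 in the main fit and 0.35, -0.61 and -0.20 without Model 1 and Model 3. Those of Pycard, Casp1 and Nlrc4 were 0.11, 0.11 and -0.004 in the main fit and 0.22, 0.19 and 0.06 without these 2 libraries. The libraries of both groups overlapped in all 10 members, whereas 16.9% of all genes showed no overlap.

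The interaction, which tests whether the AOM/DSS effect differed between trained and untrained mice, passed in 0 of the 10 members and in 0% of all genes by edgeR; at an unadjusted p under 0.05 there were 2 members and 2947 genes, and DESeq2 called 0 members and 777 genes. The interaction was 1.34 on the log2 scale for Gsdmc4 (SE 0.41, unadjusted p = 0.00705, adjusted p = 0.140) and 1.31 for Gsdmc2 (SE 0.50, unadjusted p = 0.0237, adjusted p = 0.196). For Gsdmc3 it was 0.75 (SE 0.49, adjusted p = 0.440), and for Nlrp6 0.53 (SE 0.32, adjusted p = 0.397). The Gsdmc4 interaction passed without Ctrl_Swim 2 (1.70, adjusted p = 0.0470), and was 0.98 (adjusted p = 0.217) without Model 1 and Model 3. The Nlrp6 interaction was 0.26 (adjusted p = 0.501) without Model 1 but passed without Model 3 (0.89, adjusted p = 0.0263) and without both (0.66, adjusted p = 0.0276).

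Markers of the epithelium moved with some of these genes and not with others. The 15 markers of mature colonocytes summed to 16118 to 16684 CPM in Ctrl, 13602 to 19152 CPM in Ctrl_Swim and 14759 to 16973 CPM in Model_Swim mice. In Model mice they summed to 4728, 7356 and 14489 CPM in Model 1, 2 and 3. Single markers differed: of the 15, 5 fell, 1 rose and 9 did not pass in Model against Ctrl mice. Over all genes 16.2% fell and 16.5% rose. In Model_Swim against Ctrl_Swim mice 1 rose and 0 fell, with log2 fold changes from -1.27 to 0.89. Nlrp6 had the order of the colonocyte sum within the Model mice, at 37.1% of its Ctrl mean in Model 1 and 86.1% in Model 3. The orders differed in other groups. In Model_Swim mice Nlrp6 lay at 73.6 to 80.9% and was highest in Model_Swim 3, where the colonocyte sum was lowest. In Ctrl mice Nlrp6 was lowest in Ctrl 1 and the colonocyte sum in Ctrl 2. The gasdermin C sum had another pattern. In Model_Swim mice it was at 18.4 to 30.2% of its Ctrl mean while the colonocyte sum was at 89.6 to 103%. In Ctrl_Swim mice the gasdermin C sum was at 29.5 to 61.2% while the colonocyte sum was at 82.6 to 116%.

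The summed goblet cell markers, and the genes Retnlb and Clca1, had lower values than in Ctrl mice in the 3 groups in which the gasdermin C sum was lower, although Model_Swim mice were not tested against Ctrl mice. The 9 tuft cell markers had another pattern. They summed to 98.6 to 104 CPM in Ctrl, 70.2 to 78.0 CPM in Ctrl_Swim, 81.4 to 101 CPM in Model and 93.8 to 105 CPM in Model_Swim mice. Of the 8 tested, 0 passed in Model against Ctrl mice, where 32.7% of all genes passed. In Ctrl_Swim against Ctrl mice 0 passed, where 0.969% of all genes passed. All 8 had log2 fold changes below 0 in Ctrl_Swim mice. In 5 of them every Ctrl_Swim library was below every Ctrl library, where 27.4% of all genes did not overlap. The 10 goblet markers other than Clca1 summed to 49.8 to 60.8% of their Ctrl mean in Ctrl_Swim mice, 46.3 to 92.3% in Model mice and 57.5 to 88.0% in Model_Swim mice. Of all 11 goblet markers, 5 fell and 0 rose in Model against Ctrl mice, against 16.2% of all genes lower. In Ctrl_Swim against Ctrl mice 3 fell and 0 rose, where 0.969% of all genes passed. Retnlb, a goblet cell protein induced by IL-13, was at 12.8 to 24.9% of its Ctrl mean in Ctrl_Swim, 7.01 to 24.3% in Model and 8.89 to 28.8% in Model_Swim mice. It fell in Model mice (log2 fold change -2.55, SE 0.50, adjusted p = 0.00388) and in Ctrl_Swim mice (-2.50, SE 0.50, adjusted p = 0.0465), which were compared with the same Ctrl mice. The call in Model mice held in all 12 fits without 1 library and without both Model 1 and Model 3 (-2.06, adjusted p = 0.0243). Clca1, another secreted goblet cell protein, fell in Model (-1.38, SE 0.48, adjusted p = 0.0483) and in Ctrl_Swim mice (-2.51, SE 0.50, adjusted p = 0.0465). The Clca1 call in Model mice held in only 3 of the 12 fits without 1 library, those without Ctrl_Swim 4, Model 2 or Model_Swim 3 (the log2 fold change nearest to 0 was -1.02), and was lost without both Model 1 and Model 3 (-0.61, adjusted p = 0.4). In Ctrl_Swim mice the calls of Retnlb and Clca1 each held in 4 of the 12 fits, those without a Model library or Model_Swim 3, and were lost without any of the 6 libraries compared, without Model_Swim 1 or without Model_Swim 2, with adjusted p up to 0.181 for Retnlb and 0.183 for Clca1. The type 2 list as a whole had a median log2 fold change of 0.07 in Model against Ctrl mice. Of its 7 tested genes, Il4ra, a receptor chain for IL-4 and IL-13, rose (0.85, SE 0.08, adjusted p = 0.000310), Retnlb and Clca1 fell, and 4 did not pass, while Il4, Il5 and Il25 were below the filter. The part of cell composition in the gasdermin C result was not tested.

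**Figure D4:**
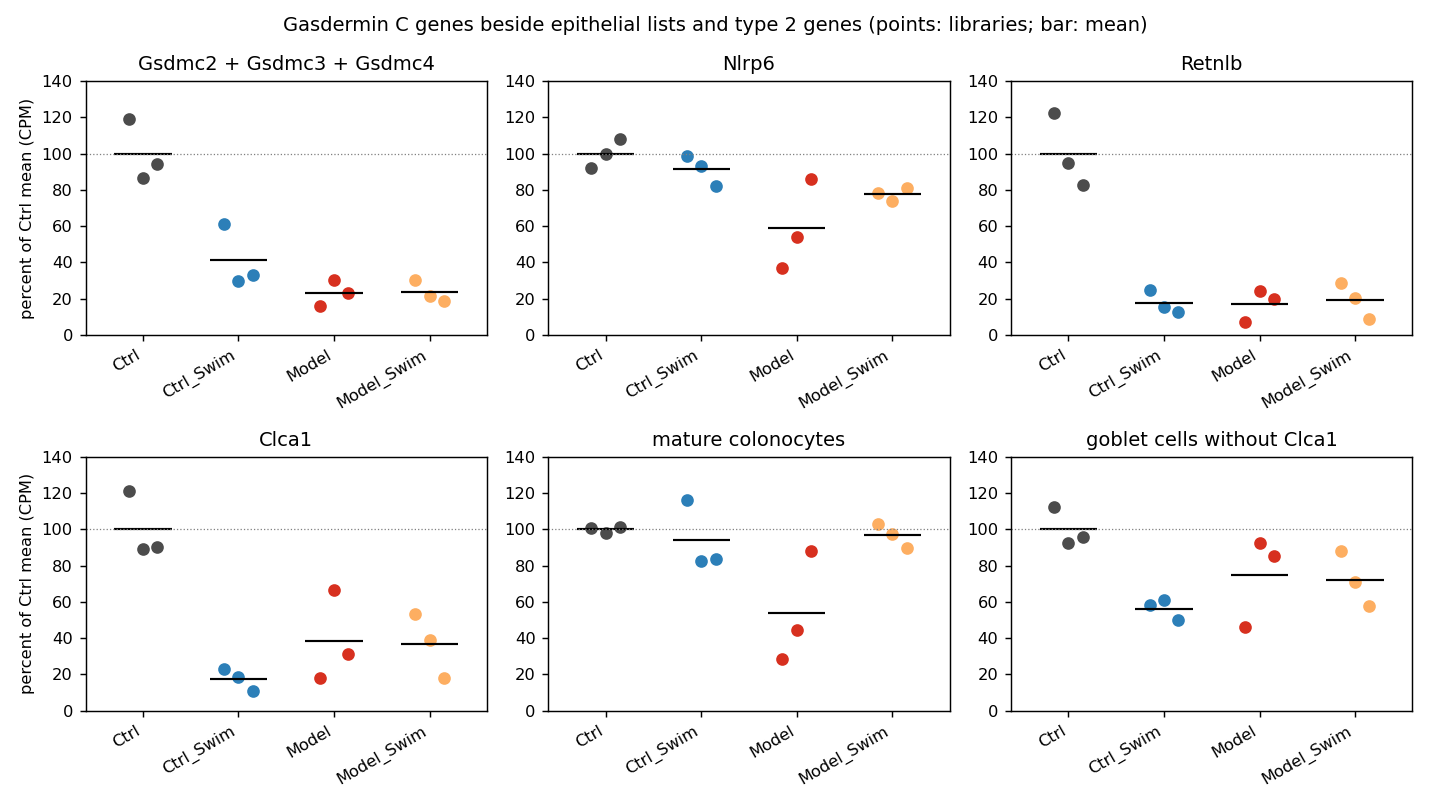
Level of the summed gasdermin C genes, Nlrp6, Retnlb, Clca1 and 2 marker lists in each library, in percent of the Ctrl mean of TMM-scaled CPM (y axis, from 0), by group, with the group mean as a bar. The gasdermin C sum and Retnlb stay at or below 61.2% in all 9 libraries outside Ctrl, while the summed colonocyte markers are at 89.6% or more in all Model_Swim libraries and Nlrp6 spreads widely in Model mice.

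Markers of inflammatory cells rose with Nlrp3, and their part in its rise was not tested. The 15 genes of macrophages and monocytes summed to 487 to 502 CPM in Ctrl and 434 to 551 CPM in Ctrl_Swim mice. They summed to 893 to 970 CPM in Model and 767 to 927 CPM in Model_Swim mice. In Model against Ctrl mice 12 of the 15 rose and 1 fell, against 16.5% of all genes higher and 16.2% lower. Of the 11 neutrophil genes tested, 7 rose and 0 fell in the same comparison. The 12 neutrophil genes summed to 18.3 to 36.0 CPM in all Ctrl and Ctrl_Swim mice. They were at 354 and 428 CPM in Model 1 and Model 2 but at 31.1 CPM in Model 3, and at 60.5, 633 and 439 CPM in Model_Swim 1 to 3. Nlrp3 was lowest in Model 3 and Model_Swim 1 within their groups, the libraries with the lowest neutrophil sums. Model 3 and Model_Swim 1 also had the lowest squamous epithelium sums of their groups, at 9.64 and 120 CPM. Between the remaining libraries of each group the orders of Nlrp3 and the neutrophil sum were opposite. Nlrp3 was at 2.52 CPM in Model 1 and 1.80 CPM in Model 2, and at 2.18 CPM in Model_Swim 2 and 3.18 CPM in Model_Swim 3. Within Model mice the macrophage and monocyte sum ran opposite to Nlrp3, with 893, 957 and 970 CPM in Model 1 to 3.

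The rest of the pathway was read from lists of related genes in the Model vs Ctrl comparison. The interleukin-1 family list holds Il1b and Il18, whose precursors caspase-1 cleaves, with other cytokines, receptors and inhibitors of the family. Its RNA levels do not show whether the precursors were cleaved. Of its 11 genes of the interleukin-1 family, 8 rose, 0 fell and 3 did not pass, with a median log2 fold change of 1.35, beside 16.5% higher and 16.2% lower over all genes. Il1b, the precursor that caspase-1 cleaves, was at 25, 15 and 17 counts in Ctrl and 418, 454 and 111 counts in Model mice (log2 fold change 4.09, SE 0.55, adjusted p = 0.000737). Il1a, an alarmin released from dying cells, rose by 5.36 (SE 1.00, adjusted p = 0.00324), from counts of 3, 0 and 0 to 88, 33 and 18, and by 4.54 to 8.56 without 1 library. Il1rn, the antagonist of the IL-1 receptor, rose by 1.35 (adjusted p = 0.00347), and the alarmin Il33 and the receptor Il1r1 rose by 0.92 and 0.43 (adjusted p = 0.0202 and 0.0117). The Il33 call was lost without Ctrl 2, Ctrl 3 or Model 1 (adjusted p up to 0.0764) and without both Model 1 and Model 3 (0.84, adjusted p = 0.103). Il18, the other caspase-1 substrate, was at 0.75 (SE 0.27, adjusted p = 0.0533) and did not pass. In Model_Swim against Ctrl_Swim mice, Il1b (3.69, adjusted p = 0.00609) and Il1a (3.28, adjusted p = 0.0401) rose, the latter in only 4 of the 12 fits without 1 library, those without Ctrl 1 or a Model library. In Model_Swim against Model mice Il1b was at -0.27 (SE 0.45, adjusted p = 0.841).

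Of 10 other inflammasome sensors tested, 2 rose and 0 fell in Model mice, with a median log2 fold change of 0.50, against 16.5% of all genes higher and 16.2% lower. These were Aim2, a sensor of DNA in the cytosol (0.45, SE 0.07, adjusted p = 0.00134), and Nlrp9b (0.78, SE 0.22, adjusted p = 0.0213), whose call held in 8 of the 12 fits without 1 library, while Naip1 (0.18, adjusted p = 0.228) and Naip2 (-0.13, adjusted p = 0.278), the most abundant of the list by FPKM, did not pass. Of 15 regulators, 4 rose and 1 fell, so that 5 passed, against 32.7% of all genes. Txnip, which binds thioredoxin (0.36, adjusted p = 0.111), and Serpinb1a, a protease inhibitor (-0.27, adjusted p = 0.0599), the highest of the list by FPKM, did not pass. Gbp5 (1.39, SE 0.29, adjusted p = 0.00509) and Gbp2 (0.95, SE 0.31, adjusted p = 0.0367), guanylate-binding proteins that act on bacteria and their lipopolysaccharide, rose, as did Card6 (0.40, adjusted p = 0.0250) and the ATP-gated channel P2rx7 (0.41, adjusted p = 0.0416), which is named here after its values were seen. Ninj1, which ruptures the membrane of dying cells, fell (-0.26, SE 0.08, adjusted p = 0.0366). The Ninj1 call held in only 1 of the 12 fits without 1 library, that without Model 1, with adjusted p up to 0.135. Those of Gbp2, Card6 and P2rx7 each held in 8 of the 12 and were lost without Ctrl 1, without Ctrl 2 and without 2 further libraries, with log2 fold changes of 0.53 to 1.25 for Gbp2, and Card6 did not pass without both Model 1 and Model 3 (0.23, adjusted p = 0.249).

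Of the 3 other gasdermins tested, Gsdma, a gasdermin of skin and squamous epithelium, rose (2.49, SE 0.87, adjusted p = 0.0469), a call that held in only 2 of the 12 fits without 1 library, those without Ctrl_Swim 4 or Model 3, with log2 fold changes of 1.12 to 3.04 over the 12. It was at 28.6, 8.39 and 1.32 CPM in Model 1 to 3, so Model 3 was below all Ctrl libraries (1.77 to 2.80 CPM). The 12 genes of squamous epithelium summed to 605 and 1521 CPM in Model 1 and Model 2 and to 9.64 CPM in Model 3, against 6.49 to 9.83 CPM in Ctrl mice. Gsdme, listed under its older symbol Dfna5, was at -0.83 (SE 0.32, adjusted p = 0.0669), and Gsdmc, the neighbour of the gasdermin C members, was at 1.24 (SE 0.90, adjusted p = 0.309), from 9 to 87 counts in Model mice.

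**Figure D5:**
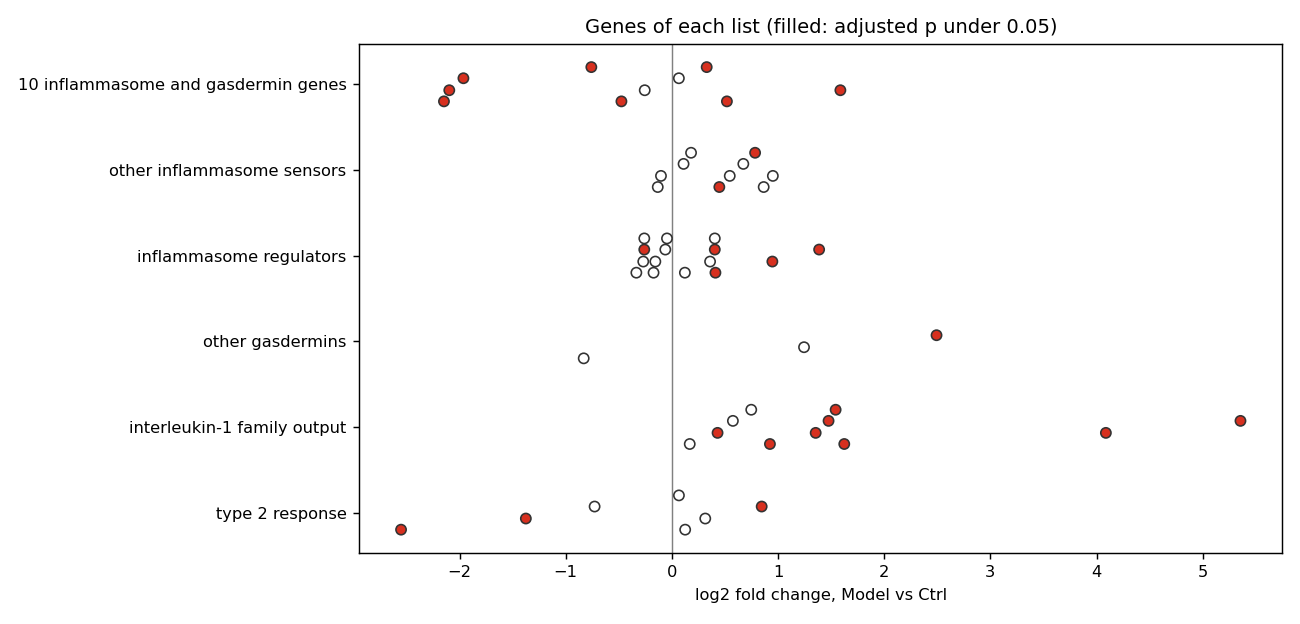
Log2 fold change in Model vs Ctrl (x axis) of the 10 members and of the tested genes of 5 related lists (rows), filled where the adjusted p was under 0.05. All 11 interleukin-1 family genes lie above 0, whereas the members spread from -2.15 to 1.59.

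Over the 12 libraries, the genes most like each gasdermin C member were partly its own neighbours, which share sequence with it. By Pearson's r of log2 CPM over all 12 libraries, a description across groups, Gsdmc2 was most like Gsdmc4 (0.981), Anxa13 (0.979) and Pi4k2b (0.977), and Gsdmc4 most like Gsdmc2 (0.981), Anxa13 (0.972) and Bag1 (0.968). Gsdmc3 was most like Gsdmc2 (0.973), Tmco4 (0.966) and Serf2 (0.964). Nlrp6 was most like other genes, Cyp4f14 (0.988), Ptprn2 (0.975) and Hpgd (0.972), and no gasdermin C gene was among its 3 nearest.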

How the data were processed

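RNA of colorectal tissue was sequenced from stranded mRNA libraries. After trimming with Trimmomatic, the authors used HISAT2 to map reads to GRCm38.p6 and HTSeq-count to count them per gene; tool versions are not given in the sources used here. They deposited raw counts, and FPKM values computed by Cufflinks, for 18514 genes listed by symbol. The study names TRIzol for extraction and the sample descriptions name another kit. All columns matched a sample by title.

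Counts were analysed with edgeR 4.0.16 (R 4.3.3): TMM scaling, filterByExpr with a minimum count of 10 (15484 genes kept). A quasi-likelihood model of all 12 libraries gave tests of 4 pairs of groups and of the swimming by AOM/DSS interaction. The Benjamini-Hochberg adjustment ran over all genes, with a threshold of 0.05. Log2 CPM used a prior count of 2. The code was tested on simulated data. Gene positions are from RefSeq and transcripts from GENCODE, both GRCm38.p6.

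All members were named. The list of other caspases is not reported here. Of each related list, genes named were the 2 largest and 2 smallest changes past the test in Model vs Ctrl and the 2 highest by FPKM, and of 4 members the 3 most alike genes. The members and lists were chosen with earlier results of these data known. Alternatives were DESeq2 1.42.0, its size factors, no filter, scaling without acinar genes, only the groups compared, a replicate block, the study's cutoffs, limma 3.58.1 on log2(FPKM + 1) or log2(FPKM + 0.1), keeping mean FPKM from 0.5 upwards or all genes, leaving out each mouse, and leaving out Model 1 and Model 3.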

Additional observations from a re-analysis of the deposited data

How the results depend on the processing

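Of 1130 member values under the alternatives, 1073 kept their side of the threshold, 30 no longer passed and 27 newly passed. No value past the test turned its sign, and 72 sign changes occurred among values that passed in neither fit. Most values passed in neither fit, as the main fit called 8 members in Model vs Ctrl, 1 in Model_Swim vs Ctrl_Swim and 0 elsewhere. The study's cutoffs were applied to the main fit. Nlrp3, at a mean of 0.326 FPKM, was not in the limma fits that kept mean FPKM from 0.5 upwards. On the FPKM scale, 7 of 30 group levels in percent of the Ctrl mean moved by more than the SD. The cause of each change below was not tested, unless fewer libraries or the added fold cutoff gave it.

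Members past the test in Model vs Ctrl were 8, against 5 with only the groups compared and 4 with the study's cutoffs, and 5 to 8 without 1 library. In Model_Swim vs Model they were 0, against 1 without Model 1 and Model 3 (chosen after seeing the data) and 0 to 1 without 1 library. In Ctrl_Swim vs Ctrl they were 0, against 1 with DESeq2, 2 with only the groups compared and 3 without Model 1 and Model 3, and 0 to 1 without 1 library. In Model_Swim vs Ctrl_Swim they were 1, against 3 with DESeq2, 2 with only the groups compared, 2 with limma without a filter and 3 without Model 1 and Model 3, and 0 to 3 without 1 library. For the interaction they were 0, against 1 without Model 1 and Model 3, and 0 to 1 without 1 library.

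All genes past the test in Model vs Ctrl were 5066, against 3337 with only the groups compared and 1150 with the study's cutoffs (3160 to 5620 without 1 library). In Model_Swim vs Model they were 11, against 361 with DESeq2, 49 without a filter, 2 with only the groups compared, 26 and 28 with limma on FPKM with pseudocounts of 1 and 0.1, and 569 without Model 1 and Model 3 (6 to 882 without 1 library). In Ctrl_Swim vs Ctrl they were 150, against 658 with DESeq2, 368 with only the groups compared, 26 with the study's cutoffs, 51, 53 and 30 with the 3 limma fits and 604 without Model 1 and Model 3 (0 to 302 without 1 library). In Model_Swim vs Ctrl_Swim they were 802, against 1562 with DESeq2, 1289 with only the groups compared, 155 with the study's cutoffs and 2153 without Model 1 and Model 3 (170 to 1459 without 1 library). For the interaction they were 0, against 777 with DESeq2 and 917 without Model 1 and Model 3 (0 to 716 without 1 library).

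The main fit did not use the replicate numbers as pairs of mice. Over 15 pairs of libraries with the same number, the correlation of deviations from the group means ran from -0.261 to 0.564, with 4 pairs over 0.1 and a median of 0.00462. Pairs with other numbers ran from -0.557 to 0.451, with a median of -0.0309. With 3 libraries a group, these values do not decide whether the numbers stand for pairs. With the replicate block, 6 members passed in Model vs Ctrl, without Casp4 (adjusted p = 0.0694) and Gsdmd (0.0623), 0 in Model_Swim vs Ctrl_Swim, without Nlrp3 (0.140), and 0 elsewhere. All genes past the test with the block were 4235 in Model vs Ctrl, 37 in Model_Swim vs Model, 1 in Ctrl_Swim vs Ctrl, 33 in Model_Swim vs Ctrl_Swim and 0 for the interaction. The FPKM scale with a pseudocount of 0.1 moved the median of all genes to 0.11 (log2) in Ctrl_Swim vs Ctrl. With 3 libraries a group, depth limits Nlrp3, read from 6 to 60 counts.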
